A study of Mus musculus with 6 samples.

Results

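The genes described are 10 members of 3 signalling systems of the growth plate, chosen by name from the 55416 genes measured: the Hedgehog genes Ihh, Ptch1, Gli1 and Hhip, the parathyroid hormone-related protein (PTHrP) genes Pthlh and Pth1r, and the fibroblast growth factor (FGF) genes Fgfr1, Fgfr2, Fgfr3 and Fgf2. They were measured by RNA-seq in primary mouse chondrocytes, the cells that make cartilage, transfected with a scrambled siRNA (siNC, n = 3 libraries) or an siRNA directed at Pkm2 (siPkm2, n = 3 libraries). Pkm2 is the form of pyruvate kinase M, an enzyme of glycolysis, that many dividing cells use, and the comparison asks which transcripts differ once it is knocked down. According to the labels, all 6 libraries came from cells of neonatal knee joints grown in DMEM/F12 with FBS, and the siNC cells were WT. The study's methods describe chondrocytes from older mice, so the sources differ on age. The genotype label reads PKM2 knockdown for siPkm2 replicate 1 but PKM3 and PKM4 for replicates 2 and 3, whereas the titles name all 3 as siPKM2, and the titles were followed. The supplement lists 3 siRNAs against Pkm2 and states that number 3 was taken for the study, but does not say which of them these libraries received. No source used here ties a strain or a separate animal to a library, so the p-values measure only the spread between these libraries.

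The strands of siRNA number 3 are shown, as the study lists them, because this is the reagent the study took for its knockdown. The capitals mark the seed of the antisense strand, its bases 2 to 8.
siPkm2 number 3, sense: caugcugucuggagaaacatt
siPkm2 number 3, antisense: uGUUUCUCcagacagcaugtt

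In the growth plate, chondrocytes that are about to enlarge secrete Indian hedgehog (Ihh), which binds the receptor Ptch1, releases Smo and turns on target genes through the Gli transcription factors. Ptch1, Gli1 and Hhip are themselves classical targets of the pathway, and the products of Ptch1 and Hhip restrain it. Indian hedgehog also maintains the supply of PTHrP (Pthlh), which acts through the receptor Pth1r to hold chondrocytes back from hypertrophy. Signalling through Fgfr3 slows the proliferation of growth plate chondrocytes, and activating mutations of this receptor cause dwarfism.

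Levels are given as CPM, the gene's estimated read count relative to the TMM-scaled size of its library. To compare genes with each other, TPM is used, in which counts are also divided by transcript length. The libraries held between 22317065 and 25691096 estimated counts. Values are listed in the order of replicates 1, 2 and 3. The targeted gene Pkm gave 2353, 2732 and 1662 CPM in the siNC libraries and 340, 540 and 306 CPM in the siPkm2 libraries (log2 difference -2.53, adjusted p = 0.00932 in edgeR's blocked fit). The count covers all transcripts of the gene, so the M1 and M2 forms were not separated. The chondrocyte label held, with Col2a1, the main cartilage collagen, between 8484 and 36351 CPM, but replicate 2 of both groups stood apart. Summed TPM of 10 chondrocyte markers came to 4088 and 5468 in replicate 2 of siNC and siPkm2, and to between 15678 and 19876 in the other 4 libraries. Summed TPM of 6 macrophage markers came to 99.8 and 58.8 there against 9.16 to 20.6 in the other 4. Of these sums Cd68 gave 92.8 and 53.4 TPM in replicate 2, with Ptprc and Adgre1, which define leukocytes and macrophages, between 0 and 0.1 TPM in every library. The 5 endothelial markers summed to at most 0.69 TPM and the 5 muscle markers to at most 7.09 TPM. The 5 synovial fibroblast markers summed to 125, 367 and 149 TPM in siNC and to 270, 478 and 354 TPM in siPkm2, and the 10 interferon-stimulated genes to 73.8, 2929 and 117 TPM against 2242, 5690 and 1618 TPM, so both lists moved with the replicate number and with the siRNA. The 6 osteoblast markers summed to between 925 and 1789 TPM in siNC and between 472 and 913 TPM in siPkm2. Most of this was Col1a1, at 766, 885 and 1600 TPM in siNC and 359, 868 and 868 TPM in siPkm2. The 6 hypertrophic chondrocyte markers, Ihh among them, summed to between 70.2 and 364 TPM in siNC and between 76.4 and 181 TPM in siPkm2. The part of these shifts in the members' values was not tested, and in bulk RNA fewer cells of a type cannot be told apart from less RNA per cell.

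Because libraries with the same replicate number deviated from their group means together, each difference was estimated by edgeR's quasi-likelihood test both without a block and with one for the replicate number. The blocked fit compares siPkm2 with siNC within each number. A gene was called at an adjusted p under 0.05 and a fold over 2. Without the block, no gene was called (percent called 0 of 15269 tested, 2690 at an unadjusted p under 0.05), so none of the 9 members tested was, although DESeq2 called 430 genes, or 2.79% (5.38% without the fold condition), none of them a member. With the block, 890 genes were called, or 5.83%, of which 3.18% of the genes tested were lower and 2.65% higher in siPkm2. Hhip, lower in siPkm2, was the member called. Without the fold condition, 23.1% of genes passed in the blocked fit, and 2 of 9 members did, Ptch1 on the higher side and Hhip on the lower, a share close to that of all genes (12.3% higher and 10.8% lower). DESeq2 with the block called 7.03% of genes and passed 26.9% without the fold condition, with the same members, Hhip in the first count and Hhip and Ptch1 in the second. When both libraries of replicate 2 were left out, 1639 genes, or 10.8%, were called in the blocked fit and 39.1% passed without the fold condition (19.8% higher and 19.3% lower). Gli1 and Hhip were then called (5.85% of genes lower, 4.94% higher), and 8 of the 9 members passed without the fold condition, 3 higher and 5 lower, with Ihh the exception. With replicate 1 or replicate 3 left out instead, no gene of the table passed the blocked fit (3937 and 3598 at an unadjusted p under 0.05), and DESeq2 was not run without those pairs. In the fit without the block, leaving out both libraries of replicate 2 gave 507 genes called of 15185 tested. There, 0 members passed at any fold.

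**Figure D1:**
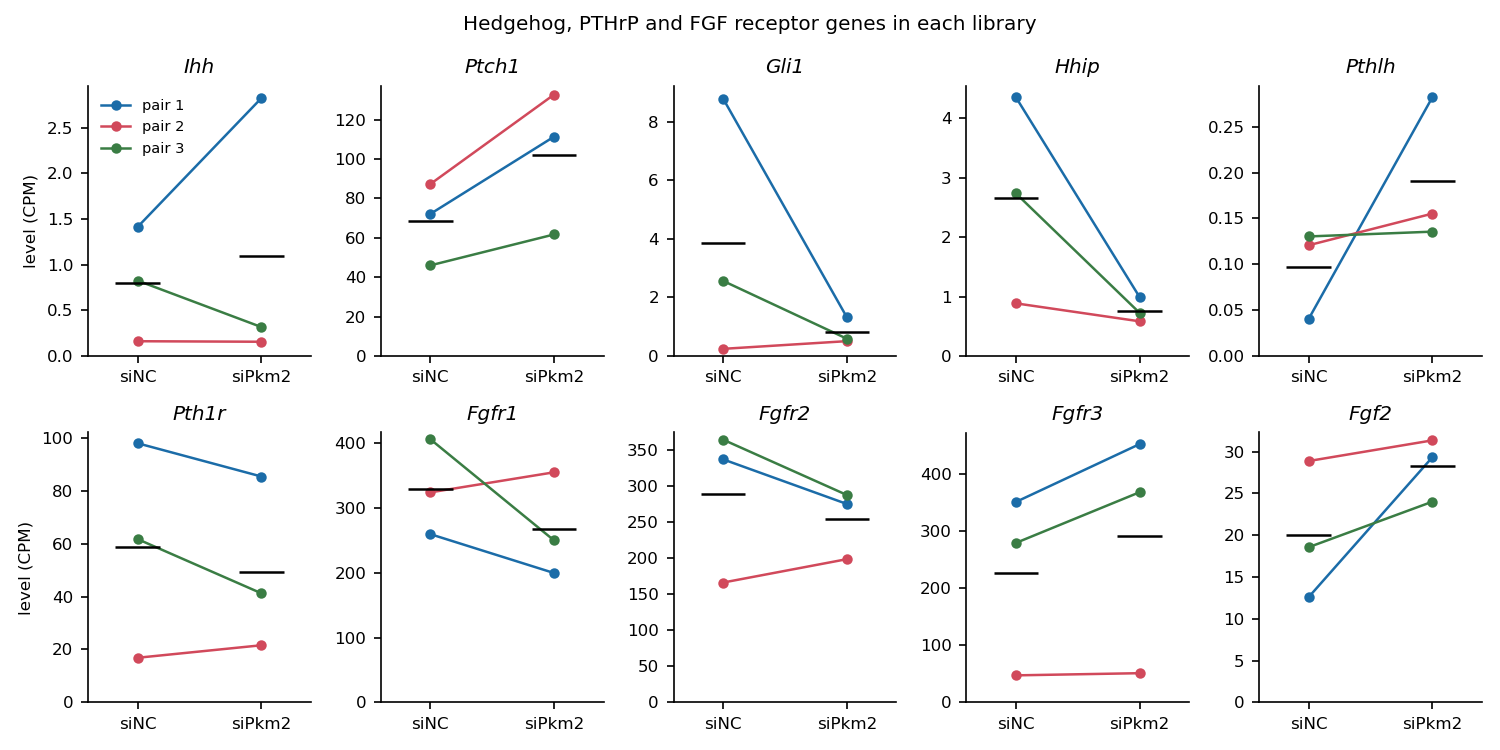
Level of each of the 10 genes in every library, in CPM on axes that start at 0, with a point per library, a line joining the libraries of each replicate number and a black bar at each group's mean. Libraries of replicate 2 lie far below the others for Fgfr3 and Pth1r in both groups, and Ptch1 and Hhip move in opposite directions between siNC and siPkm2.

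Per unit of length the receptors were the abundant members. Averaged over all 6 libraries, the TPM of Fgfr1, Fgfr2 and Fgfr3 were 136.8, 124 and 117, followed by Pth1r at 40.4, Ptch1 at 18.2 and Fgf2 at 8.57. Gli1, Ihh, Hhip and Pthlh averaged 0.978, 0.762, 0.415 and 0.17 TPM. The ranges over libraries of neighbours in this order overlapped, apart from Ptch1 (10.2 to 29.1 TPM) and Fgf2 (3.56 to 10.1 TPM). Within every library, however, Pth1r lay below Fgfr1, Fgfr2 and Fgfr3. The order among the FGF receptors, that of Pth1r and Ptch1, that of Fgf2 and Gli1, and that among the last 4 genes were not settled by these libraries. In siNC replicate 1, Gli1 lay above Fgf2, at 3.76 and 3.56 TPM. Both ligands of the Ihh and PTHrP loop were thus covered by few reads, 60 at most in a library, while their receptors had at least 419.

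Ihh, the Hedgehog ligand of prehypertrophic chondrocytes (chromosome 1, 74945315 to 74951672, minus strand, GRCm38), had 35, 4 and 19 counts in siNC and 60, 4 and 7 counts in siPkm2. The corresponding levels were 1.41, 0.16 and 0.83 CPM and 2.82, 0.16 and 0.32 CPM. It was highest in replicate 1 of either group and lowest in replicate 2, and the groups overlapped fully. Within the pairs, Ihh was higher, nearly equal and lower in siPkm2, with log2 ratios of 1.00, -0.05 and -1.38. The log2 difference of siPkm2 over siNC was 0.44 (SE 1.18, adjusted p = 0.890) without the block and 0.04 (SE 0.60, adjusted p = 0.968) with it, so no direction was resolved at this depth.

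Ptch1, the receptor that binds Hedgehog ligands and holds Smo inactive (chromosome 13, 63508328 to 63573598, minus strand), stood at 72.1, 87.3 and 46.0 CPM in siNC and at 111, 133 and 61.7 CPM in siPkm2. The siPkm2 library was the higher of each pair, by ratios of 1.54, 1.52 and 1.34, but the groups overlapped, since siPkm2 replicate 3 lay below siNC replicates 1 and 2. The means were 68.5 ± 20.9 CPM and 102 ± 36.5 CPM (SD, n = 3 libraries). The log2 difference was 0.57 (SE 0.34, adjusted p = 0.437) without the block and 0.55 (SE 0.08, adjusted p = 0.0161) with it. Without replicate 2 the blocked difference was 0.52 (adjusted p = 0.00504). It was 0.52 and 0.61 (adjusted p = 0.103 and 0.106) without replicate 1 and without replicate 3, so the difference was of similar size in each subset, always under a 2-fold change, and passed the adjusted p only with replicates 1 and 3 both present. Of the 10 members, Ptch1 had the most even pair ratios, with an SD of 0.11 over the 3 log2 pair ratios.

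Hhip, a membrane protein that binds Hedgehog ligands and keeps them from the receptor (chromosome 8, 79965851 to 80058006, minus strand), went the other way. It had 108, 22 and 63 counts in siNC and 21, 15 and 16 counts in siPkm2, or 4.36, 0.89 and 2.74 CPM against 0.99, 0.58 and 0.72 CPM. Each siPkm2 library was the lower of its pair, and the 3 siPkm2 levels were close together whereas siNC spread 4.92-fold. The groups overlapped only in that siPkm2 replicate 1 lay just above siNC replicate 2. The means were 2.66 ± 1.74 CPM and 0.765 ± 0.206 CPM (SD, n = 3 libraries). The log2 difference was -1.79 (SE 0.62, adjusted p = 0.218) without the block and -1.61 (SE 0.40, adjusted p = 0.0420) with it. Leaving out replicate 2 gave -2.04 (adjusted p = 0.00426), and leaving out replicate 1 or 3 gave -1.30 and -1.45 (adjusted p = 0.224 and 0.215).

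Gli1, the transcription factor whose own transcription reports Hedgehog activity (chromosome 10, 127329882 to 127341974, minus strand), had 218, 6 and 59 counts in siNC and 28, 13 and 13 counts in siPkm2. In CPM it stood at 8.80, 0.24 and 2.56 in siNC and at 1.32, 0.50 and 0.59 in siPkm2. Replicates 1 and 3 were lower in siPkm2, with log2 ratios of -2.74 and -2.13, and replicate 2, where siNC had 6 counts, was higher at 1.06. The log2 difference was -2.26 (SE 1.13, adjusted p = 0.358) without the block and -1.68 (SE 0.71, adjusted p = 0.138) with it. In the blocked fit it was -2.50 (adjusted p = 0.00162) without replicate 2, where Gli1 passed, -0.80 (adjusted p = 0.608) without replicate 1 and -1.38 (adjusted p = 0.432) without replicate 3. The 3 targets of the pathway therefore did not move together: Ptch1 was higher in 3 of 3 pairs, Hhip lower in 3 of 3, and Gli1 lower in 2 of 3.

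**Figure D2:**
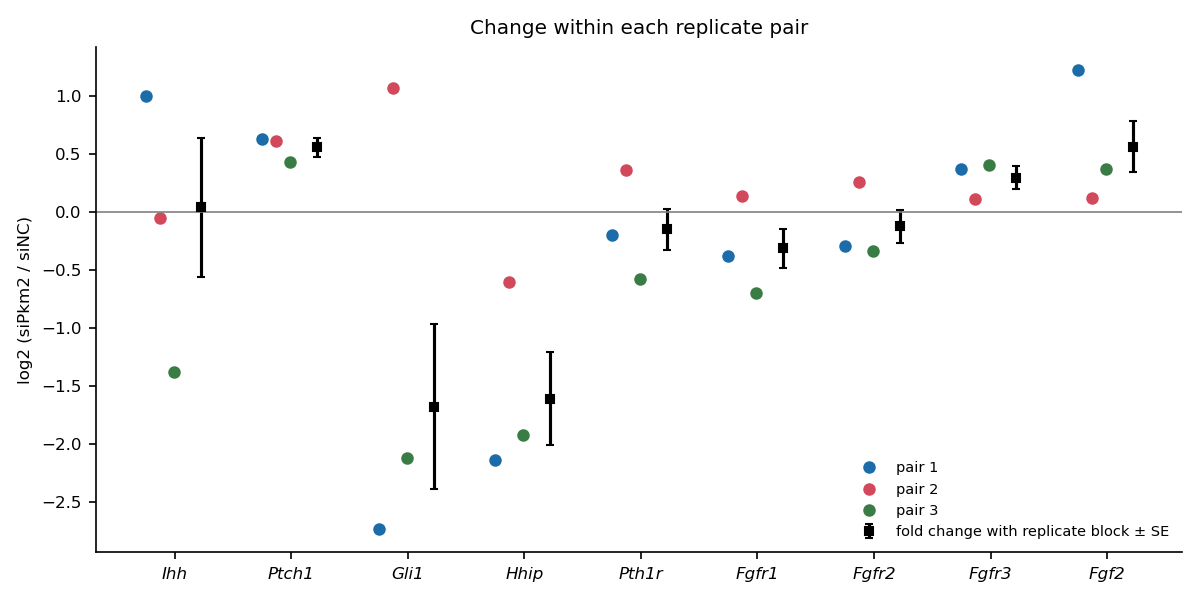
Log2 ratio of siPkm2 over siNC within each replicate number for the 9 members tested, with a coloured point per pair from CPM and a black square for the log2 difference of the blocked edgeR fit with its SE. The 3 pairs of Ptch1 lie between 0.42 and 0.63 and those of Hhip between -2.14 and -0.60, while the pairs of Ihh and Gli1 fall on both sides of 0.

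The sequences upstream of Ptch1 and Hhip are shown because these targets of the same pathway differed in opposite directions. Each is the 250 bases before a RefSeq transcription start, on GRCm38.p6, minus strand, printed in the sense of the gene, with capitals marking the GC box (GGGCGG or its complement CCGCCC). The Ptch1 window (chr13:63565736-63565985) belongs to a start inside the annotated gene, and the Hhip window (chr8:80058009-80058258) lies just before it.
Ptch1: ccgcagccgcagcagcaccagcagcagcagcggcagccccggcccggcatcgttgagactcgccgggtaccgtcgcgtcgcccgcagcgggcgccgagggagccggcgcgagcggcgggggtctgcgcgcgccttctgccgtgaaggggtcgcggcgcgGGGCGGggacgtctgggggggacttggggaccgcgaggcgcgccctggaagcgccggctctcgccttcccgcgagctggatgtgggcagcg
Hhip: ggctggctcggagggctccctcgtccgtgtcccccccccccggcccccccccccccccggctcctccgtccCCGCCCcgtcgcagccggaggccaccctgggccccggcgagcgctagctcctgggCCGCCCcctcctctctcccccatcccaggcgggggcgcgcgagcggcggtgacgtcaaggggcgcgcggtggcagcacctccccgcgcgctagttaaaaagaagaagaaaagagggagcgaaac
Both windows were rich in G and C, at 78.4% in Ptch1 and 76.0% in Hhip against a median of 52.4% over 32851 windows, and held 41 and 28 CpG. The GC box lay at -91 in Ptch1 and at -179 and -124 in Hhip, relative to the start. RefSeq windows were found for 8 of the 10 members, 11 windows in all. On either strand, the GC box was in 9 of these 11 and in 32.7% of all windows, CCAAT in 2 and in 33.9%, and TATAAA in 0 and in 12.4%. The 9 letters GACCACCCA, a Gli binding sequence, were in 0 of the 11 member windows and in 0.225% of all windows, which says only that these letters are not in these stretches.

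Taken with the members, the genes of the Hedgehog pathway mostly lay lower in siPkm2. Of 17 genes for ligands, ligand release and receptors, Ihh, Ptch1 and Hhip included, 14 were tested and 11 had a log2 difference below 0. In the blocked fit 3 of the 14 were called, all lower, where 3.18% of all genes were called lower. Without the fold condition 6 were lower and 1, Ptch1, was higher, where 10.8% of all genes were lower and 12.3% higher. The median difference of the 14 was -0.58, beside -0.01 over all genes tested. The genes called were Hhip and the coreceptors Cdon and Gas1, which help Ptch1 to bind ligand. Cdon stood at 378, 295 and 425 CPM in siNC and at 184, 147 and 188 CPM in siPkm2. All siPkm2 libraries were thus below all siNC libraries, with a difference of -1.07 (adjusted p = 0.00942). Gas1 stood at 323, 235 and 830 CPM in siNC and at 76.8, 159 and 292 CPM in siPkm2 (-1.38, adjusted p = 0.0275), lower in each pair but with overlap between the groups. Disp1, which releases the ligand from the cells that make it, Hhat, which attaches palmitate to it, and Gpc3, a glypican that binds it, made up the 6, at -0.65, -0.52 and -0.94 (adjusted p = 0.0350, 0.0338 and 0.0231), and were named after their values were seen. Boc, a relative of Cdon, lay at -0.64 (adjusted p = 0.0705) and Smo, the signalling receptor, at -0.22 (adjusted p = 0.234). The ligand Shh had at most 1 count in a library.

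Of 18 genes that carry the signal inside the cell, Gli1 included, all were tested. In the blocked fit without the fold condition 5 were lower, none higher, with a median of -0.17. Over all genes 10.8% were lower and 12.3% higher. Stk36, a kinase related to the Drosophila regulator Fused, was the gene called (3.18% of all genes were called lower), at 12.4, 10.1 and 13.5 CPM in siNC and 3.48, 6.80 and 4.16 CPM in siPkm2 (-1.35, adjusted p = 0.0284). Its groups did not overlap. The others were Gli3, the main repressor of the pathway, at -0.52, Gpr161, a ciliary receptor that restrains it, at -0.68, Evc, a ciliary protein that acts with Smo, at -0.64, and Ift80, a part of the transport machinery of the cilium, at -0.59 (adjusted p = 0.0338, 0.0329, 0.0142 and 0.0290). Both activators and repressors were thus among the genes that were lower. Gli2 lay at -0.80 (adjusted p = 0.105) and Sufu, which holds the Gli proteins in the cytoplasm, at -0.01 (adjusted p = 0.945).

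**Figure D3:**
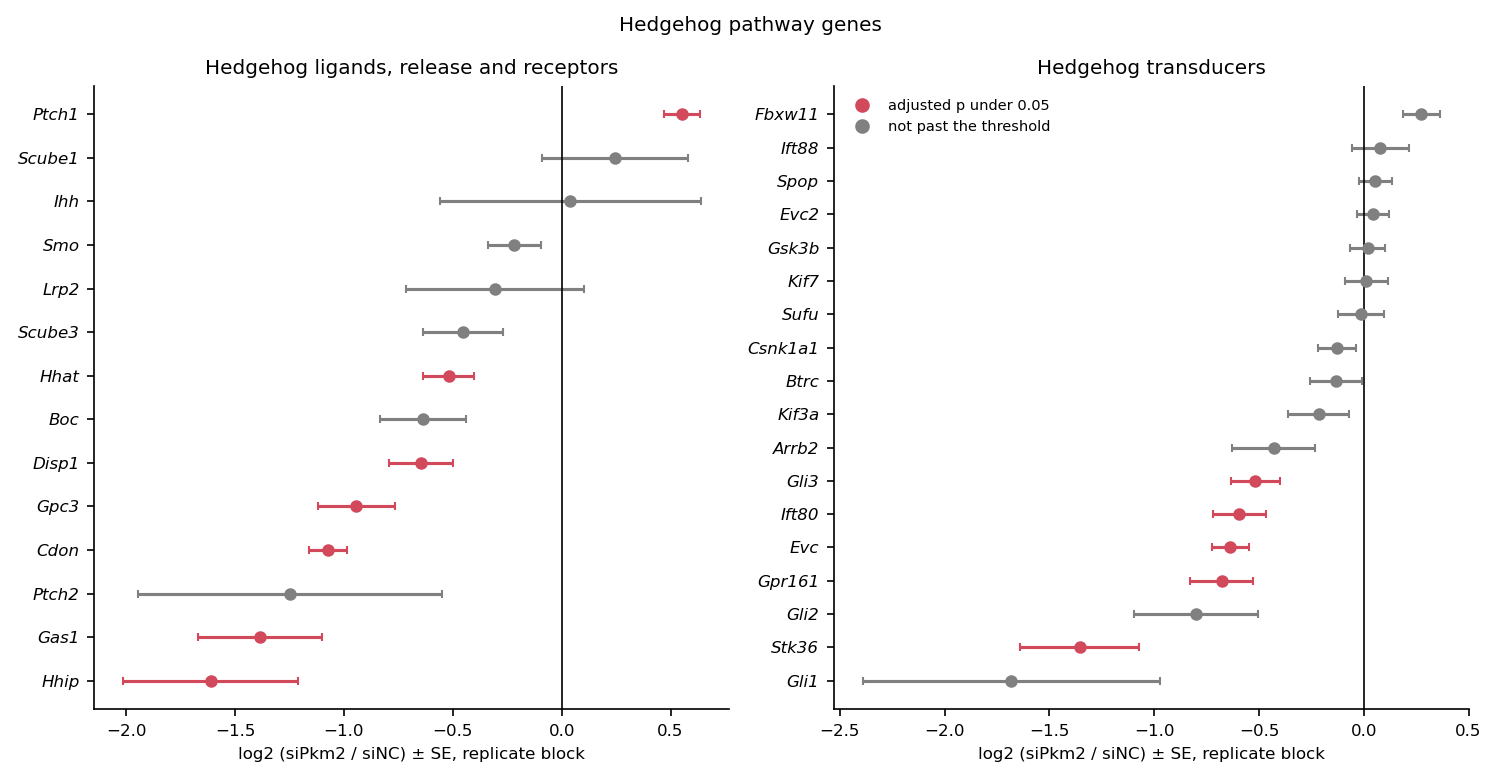
Log2 difference of siPkm2 over siNC in the blocked fit, with its standard error, for the tested genes of both Hedgehog lists, in red where the adjusted p was under 0.05 at any fold. Of the genes in red, Ptch1 alone lies above 0, and Hhip, Gas1, Stk36 and Cdon lie below -1.

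Pthlh, the gene for PTHrP (chromosome 6, 147252101 to 147264183, minus strand), was barely detected. It had 1, 3 and 3 counts in siNC and 6, 4 and 3 counts in siPkm2, too few to pass the filter on low counts, so it was not tested. The levels of the groups did not overlap in CPM, but with 1 to 6 counts a library no difference was detectable.

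Pth1r, the receptor shared by PTHrP and parathyroid hormone (chromosome 9, 110722085 to 110747145, minus strand), stood at 97.9, 16.9 and 61.7 CPM in siNC and at 85.4, 21.6 and 41.2 CPM in siPkm2. The order of the replicates was the same in both groups, with replicate 1 highest and replicate 2 lowest. The mean of replicates 1 and 3 was 4.73 times replicate 2 in siNC and 2.93 times in siPkm2, so the level of Pth1r differed more between replicate numbers than between siRNAs. Within pairs the log2 ratios were -0.20, 0.36 and -0.58. The difference was -0.25 (SE 0.70, adjusted p = 0.893) without the block, -0.15 (SE 0.18, adjusted p = 0.559) with it and -0.39 (adjusted p = 0.0278) in the blocked fit without replicate 2. With replicate 1 left out instead it was -0.12 (adjusted p = 0.785), and with replicate 3 left out its sign turned, at 0.069 (adjusted p = 0.848).

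Among the 23 genes of the PTHrP pathway, Pthlh and Pth1r included, 21 were tested, none was called, and the median was -0.03 in the blocked fit. Without the fold condition 3 of the 21 were higher, near the 12.3% of all genes, and 0 lower, against 10.8% of all genes. The 3 were Prkar1a, a regulatory subunit of protein kinase A, at 0.49, Pde4d, a phosphodiesterase that breaks down cyclic AMP, at 0.47, and Hdac4, a deacetylase that represses hypertrophy in cartilage, at 0.39 (adjusted p = 0.0211, 0.0453 and 0.0350). Prkar1a stood at 297, 279 and 287 CPM in siNC and at 415, 418 and 376 CPM in siPkm2, with no overlap. Hdac4 stood between 20.3 and 20.7 CPM in siNC and between 26.4 and 27.4 CPM in siPkm2, also without overlap. The lowest differences of the list were those of Ramp2, which encodes a partner protein of the receptor, at -0.79 (adjusted p = 0.254), and Zfp521, a transcription factor, at -0.63 (adjusted p = 0.0995), neither of which passed.

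Fgfr3, the receptor that slows growth plate chondrocytes (chromosome 5, 33721674 to 33737068, plus strand), stood at 351, 47.3 and 279 CPM in siNC and at 452, 51.1 and 368 CPM in siPkm2. Replicate 2 was far below the other libraries in both groups, the mean of replicates 1 and 3 being 6.65 and 8.02 times its level. Each siPkm2 library was nonetheless the higher of its pair, with log2 ratios of 0.37, 0.11 and 0.40. The means of 226 ± 159 CPM and 290.3 ± 211 CPM (SD, n = 3 libraries) did not separate the groups, with a difference of 0.36 (SE 0.92, adjusted p = 0.884). With the block the difference was 0.29 (SE 0.10, adjusted p = 0.0821), which missed the threshold, and without replicate 2 it was 0.37 (adjusted p = 0.0154). Without replicate 1 and without replicate 3 it was 0.26 and 0.24 (adjusted p = 0.333 and 0.392). Fgfr3 and the chondrocyte markers were both low in replicate 2. Fgfr3 shares 13.9% of its exonic bases with G630022F23Rik on the opposite strand, which lay at 0.83 TPM or below.

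Fgfr1, which many mesenchymal cells express (chromosome 8, 25513654 to 25575718, plus strand), did not share this drop. It stood at 260, 324 and 406 CPM in siNC and at 199.8, 355 and 250.05 CPM in siPkm2. It was lower in siPkm2 in replicates 1 and 3 and slightly higher in replicate 2, with log2 ratios of -0.38, 0.13 and -0.70 in replicates 1, 2 and 3. The difference was -0.30 (SE 0.28, adjusted p = 0.634), -0.32 (SE 0.17, adjusted p = 0.213) with the block and -0.55 (adjusted p = 0.00712) in the blocked fit without replicate 2. That fit gave -0.28 (adjusted p = 0.482) without replicate 1 and -0.13 (adjusted p = 0.712) without replicate 3.

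Fgfr2 (chromosome 7, 130162451 to 133123350, minus strand), a receptor with roles in the skeletal precursors of bone, stood at 337, 166 and 364 CPM in siNC and at 275, 198 and 287 CPM in siPkm2. Like Fgfr1, it was lower in siPkm2 in replicates 1 and 3 and higher in replicate 2. The difference was -0.19 (SE 0.33, adjusted p = 0.819), -0.13 (SE 0.14, adjusted p = 0.533) with the block and -0.33 (adjusted p = 0.0234) in the blocked fit without replicate 2. Without replicate 1 or replicate 3 instead, it was close to 0, at -0.042 and -0.020 (adjusted p = 0.912 and 0.961). Fgfr2 as annotated shares 314 bases, or 3.04% of its exonic bases, with Ctbp2 on the same strand, which lay between 29.8 and 38.9 TPM. How reads there were counted is not given.

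Since TPM allows receptors to be compared within a library, each receptor's share of the summed TPM of Fgfr1, Fgfr2, Fgfr3 and Fgfr4 was computed. Fgfr3 made up 36.7%, 9.07% and 27.3% of the sum in siNC and 48.2%, 8.69% and 42.5% in siPkm2. Fgfr1 made up 26.8%, 59.6% and 38.1% in siNC and 21.9%, 55.8% and 26.6% in siPkm2. Replicate 2 was therefore dominated by Fgfr1 in both groups, and Fgfr3 was the most abundant of the 4 in siPkm2 replicates 1 and 3 and, by a narrow margin over Fgfr2, in siNC replicate 1. Fgfr1's share was lower in siPkm2 in 3 of 3 pairs, by -4.86, -3.84 and -11.5 percentage points, and Fgfr3's was higher in 2 of 3, by 11.5 and 15.2 points, with -0.383 in replicate 2. The mean differences were -6.72 points for Fgfr1 and 8.75 points for Fgfr3 (exact two-sided permutation p = 0.5 and 0.6, where 3 against 3 libraries cannot go below 0.1). An exact sign-flip test over the pairs gave p = 0.25 and 0.5, where 3 pairs cannot go below 0.25. Without siNC replicate 2 the mean differences were 2.35 and 1.10 points, so that of Fgfr1 turned sign, and without siPkm2 replicate 2 they were -17.2 and 20.97 points. Leaving out siPkm2 replicate 1 gave -0.290 and 1.21 points, siPkm2 replicate 3 gave -2.64 and 4.07 points, and siNC replicate 1 gave -14.1 and 14.9 points. Each of these omissions broke a pair, so the values also hold the difference between replicate numbers. Fgfr2's share lay between 29.3% and 35.8% in every library, with a mean difference of -1.98 points (exact permutation p = 0.4), and Fgfr4's was at most 0.666% (-0.047 points, exact permutation p = 0.8).

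**Figure D4:**
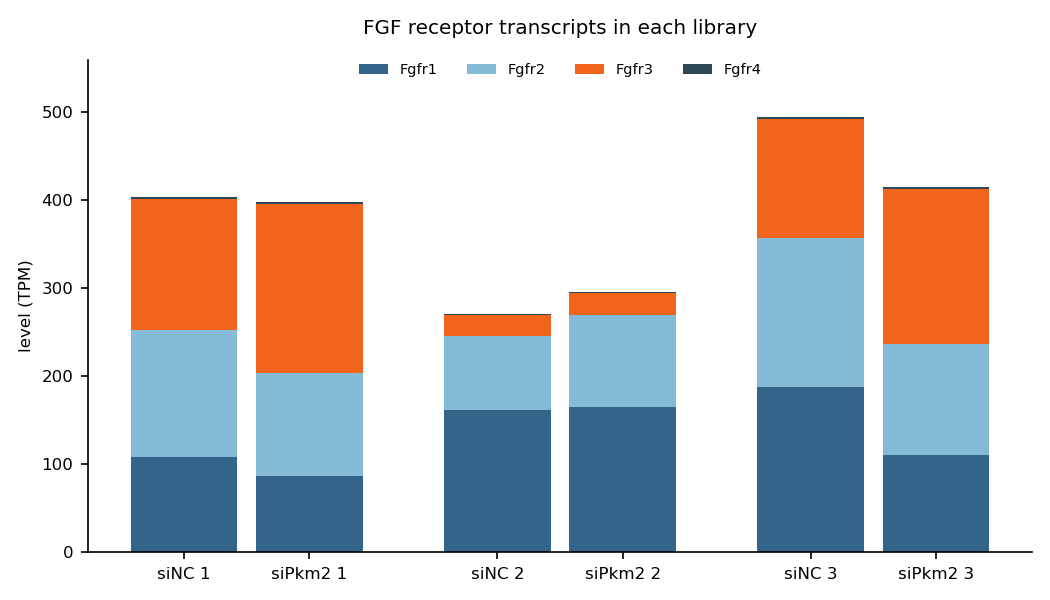
Stacked bars of the TPM of Fgfr1, Fgfr2, Fgfr3 and Fgfr4 in each library, with siNC and siPkm2 side by side for each replicate number. The Fgfr3 segment is 24.6 and 25.7 TPM in replicate 2 and between 135 and 192 TPM elsewhere, the Fgfr1 segment is between 87.3 and 188 TPM, and Fgfr4 is a thin line at the top.

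Fgf2, a ligand of these receptors that is abundant in cartilage matrix (chromosome 3, 37348346 to 37410108, plus strand), stood at 12.6, 28.9 and 18.6 CPM in siNC and at 29.3, 31.3 and 24.0 CPM in siPkm2. The siPkm2 library was the higher of each pair, with log2 ratios of 1.22, 0.12 and 0.37, most of it in replicate 1. On the TPM scale the pair of replicate 3 did not differ in that direction, at 9.61 and 9.52 TPM. The means were 20.0 ± 8.23 CPM and 28.2 ± 3.79 CPM (SD, n = 3 libraries). The difference was 0.49 (SE 0.31, adjusted p = 0.468), 0.56 (SE 0.22, adjusted p = 0.122) with the block and 0.78 (adjusted p = 0.0212) without replicate 2. Without replicate 1 the blocked difference was 0.24 (adjusted p = 0.351), and without replicate 3 it was 0.66 (adjusted p = 0.247). Fgf2 shares 640 bases, or 9.44% of its exonic bases, with Nudt6 on the opposite strand, and since the strand of counting is not given, reads there cannot be assigned to either gene. Nudt6 itself lay between 3.32 and 6.16 TPM.

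The FGF lists, taken with the members, moved in both directions. Of 14 ligand genes, Fgf2 included, 7 were tested. Fgf21, better known as a hormone of the liver, was the gene called with the block, where 3.18% of all genes were called lower. It was lower in siPkm2 at -1.80 (adjusted p = 0.0177). It stood at 8.31, 0.48 and 6.13 CPM in siNC and at 1.84, 0.12 and 2.35 CPM in siPkm2. Of 15 receptor and coreceptor genes, Fgfr1, Fgfr2 and Fgfr3 included, 12 were tested and none was called, with a median of 0.15. Without the fold condition 3 of these 12 were higher and 1 lower, where 12.3% and 10.8% of all genes were. The heparan sulfate proteoglycan genes Sdc4, Gpc1 and Sdc1 were higher, at 0.98, 0.98 and 0.44, and Sdc2 was lower, at -0.45 (adjusted p = 0.0133, 0.0170, 0.0288 and 0.0264). Gpc1 stood at 152, 153 and 135 CPM in siNC and at 359, 225 and 297 CPM in siPkm2, with no overlap. Heparan sulfate chains of such proteins hold FGF at its receptor.

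Of 25 genes for FGF signalling and its feedback, all were tested, 5 were higher and 4 lower without the fold condition, and the median was 0.17. Over all genes 12.3% were higher and 10.8% lower, and 5.83% were called. Those called here were Flrt2, a membrane protein of a family that binds FGF receptors, which was higher at 1.32 (adjusted p = 0.0180), its relative Flrt1, lower at -1.19 (adjusted p = 0.0381), and Spry1, a feedback inhibitor of the pathway, lower at -1.81 (adjusted p = 0.0169). Flrt2 stood at 28.2, 26.2 and 30.7 CPM in siNC and at 81.2, 88.4 and 49.0 CPM in siPkm2. Spry1 stood at 2.22, 3.30 and 2.35 CPM in siNC and at 0.61, 1.01 and 0.63 CPM in siPkm2. The groups overlapped for neither gene. Of the other feedback genes of the list, Spred2, an inhibitor of Ras signalling to ERK, was higher at 0.38 (adjusted p = 0.0380), and Il17rd, an inhibitor also known as Sef, was lower at -0.81 (adjusted p = 0.0478). The rest of the genes that passed were the signalling adaptors and enzymes Shc1, Ptpn11 and Cbl, higher at 0.64, 0.56 and 0.48, and the adaptor Frs3, lower at -0.71 (adjusted p = 0.0142, 0.0147, 0.0238 and 0.0463). Genes that FGF signalling induces and that did not pass lay on both sides of 0. Dusp5 lay at 1.34 (adjusted p = 0.0597), with no overlap between the groups. Etv4, Etv1 and Dusp6 lay at 0.71, 0.48 and 0.46 (adjusted p = 0.353, 0.0619 and 0.234). Spry4 and Spry2 lay at 0.19 and 0.17 (adjusted p = 0.629 and 0.480). Dusp4 and Etv5 lay at -0.15 and -0.34 (adjusted p = 0.826 and 0.0894).

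Set against each other by replicate number, the members fell into different patterns in siNC. The mean of replicates 1 and 3 was 23.5 times replicate 2 for Gli1, 6.95 times for Ihh, 6.65 times for Fgfr3, 4.73 times for Pth1r, 4.01 times for Hhip and 2.11 times for Fgfr2. It was near equal for Fgfr1 at 1.03 and below replicate 2 for Ptch1 and Fgf2 at 0.677 and 0.540. In siPkm2 the ratio was also high for Ihh, Fgfr3 and Pth1r, at 10.1, 8.02 and 2.93, but was 1.89 for Gli1 and 1.47 for Hhip. For these Hedgehog targets the gap between siNC and siPkm2 thus lay mainly in replicates 1 and 3, where siNC was high. What sets replicate 2 apart was not tested.

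**Figure D5:**
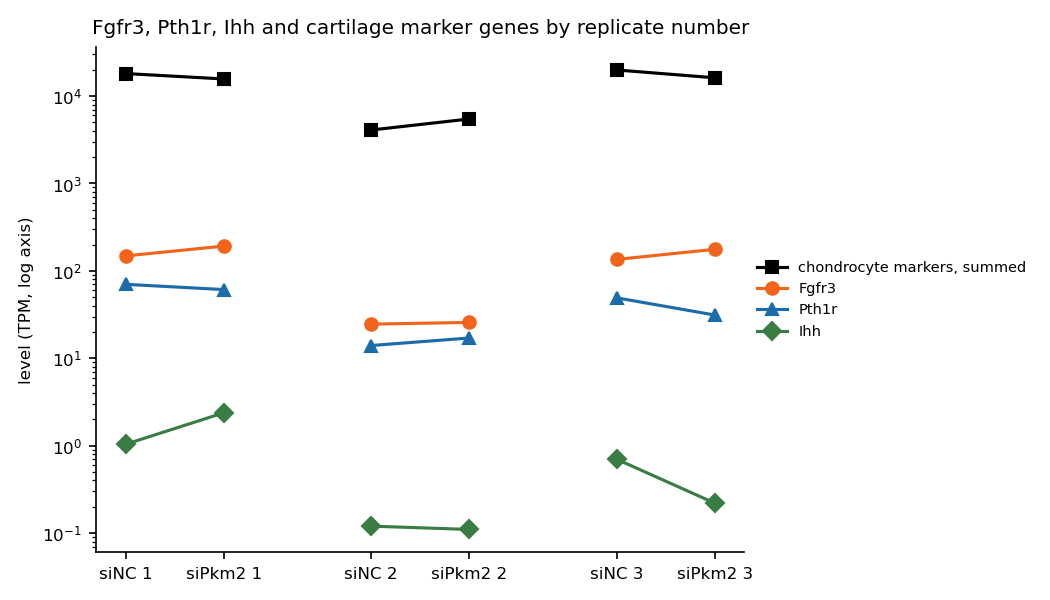
TPM on a log axis of Fgfr3, Pth1r, Ihh and the summed 10 chondrocyte markers in each library, with a line joining siNC and siPkm2 of the same replicate number. All 4 lie lowest in replicate 2 of both groups, where the summed markers are 4088 and 5468 TPM, Fgfr3 24.6 and 25.7 TPM, Pth1r 14.0 and 17.1 TPM and Ihh 0.12 and 0.11 TPM.

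For the most abundant member of each system, the genes with the most similar profile over the 6 libraries were sought by Pearson's r of log2 CPM, as a description only, since all points share the same libraries and many of the 15269 genes reach a high r with so few. Ptch1 was nearest to Stc2, Cysltr1 and Ppp1r12a, each at r = 0.993. Pth1r was nearest to Rabl3 (r = 0.998), to Sp7 (r = 0.996), a transcription factor of osteoblasts and hypertrophic chondrocytes, and to Ubac1 (r = 0.994). Fgfr1 was nearest to 1700012D14Rik (r = 0.993), Slit3 (r = 0.986) and Gm27003 (r = 0.983).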

How the data were processed

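RNA-seq was analysed from 3 siNC and 3 siPkm2 libraries. The authors deposited estimated counts per gene, not normalized, of which 33.09% of the values above 0 were fractional, and TPM values scaled by transcript length within each library. The deposited group means of TPM and the authors' own fold change, log2 fold change, p-value, adjusted p-value and significance columns were not used. The submitters' notes name mm9 and edgeR, with no role given. The aligner, the counting method and its strand setting are not given in the sources used here. The tables hold no coordinates, so positions are from GENCODE M21 and promoters from RefSeq, both GRCm38.

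Counts were rounded to whole numbers, and 15269 genes passed edgeR's filterByExpr. The groups were compared in R 4.3.3 by edgeR 4.0.16 (TMM factors, quasi-likelihood test, Benjamini-Hochberg adjustment over all genes tested). DESeq2 1.42.0, limma 3.58.1 on TPM, other factors and filters, each library left out and the replicate block were alternatives. The scripts were tested on simulated data. Shares of receptors were compared by exact permutation and by exact sign flips over the pairs.

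The numbers were taken to pair the libraries because deviations from the group means correlated at 0.66, 0.76 and 0.65 for equal numbers. The pairing was thus read from the data and not from the labels. For unequal numbers the correlations were at most 0.16. A gene's deviations sum to 0 within a group, so these low values follow in part from the high ones and are not separate evidence. Members and lists were chosen with earlier results of these data known. Named were all members, the called genes of each pathway list or, where none was called, the 2 highest and 2 lowest differences with the block, and the 3 genes most similar to the most abundant member of each system. Genes named beyond this rule (those that passed without the fold condition, and genes given for their role) were chosen after their values were seen. Cell type lists covered chondrocytes, hypertrophic chondrocytes, osteoblasts, macrophages, endothelium, muscle and synovial fibroblasts.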

Additional observations from a re-analysis of the deposited data

How the results depend on the processing

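The counts depended on the replicate block and on which pairs of libraries it held. The genes called over the whole table rose from 0 to 890 with the block, and stood at 1017 with the block in DESeq2, 430 in DESeq2 without it, 3 with upper-quartile factors, 9 with no filter, 3 with at least 10 counts in every library, 1 with limma on log2(TPM + 1) and 1 on log2(TPM + 0.1). Leaving out 1 library gave 0 to 105, the 105 without siNC replicate 2. Members called went from 0 to 1 with the block in edgeR and 1 in DESeq2, and members passing without the fold condition to 2 in each. Pathway genes went to 8 and 9, with 5 in DESeq2 without pairing. Over all genes the shares called were 5.83%, 7.03% and 2.79% in these fits. The pathway lists, which include the members, held 14, 18, 21, 7, 12 and 25 tested genes in the main fit. Leaving out 1 library left members called, members passing and pathway genes called at 0 to 0. Settings chosen after seeing the data combined the block with both libraries of a number left out. Without replicate 2 they gave 1639 genes, or 10.8% of those tested, 2 members called, 8 members passing and 17 pathway genes. Without the block, as planned, leaving out replicate 2 gave 507 genes of 15185 tested and 7 pathway genes. It left 0 members called and 0 members passing without the fold condition. In the blocked fit, leaving out replicate 1 or 3 left 0 in each.

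Of the log2 differences of members, 146 kept direction and side of the threshold, 12 passed it and 10 turned sign, none of the latter past it. With 1 library left out, Ihh ranged from -1.75 to 1.13, Pth1r from -0.90 to 0.32, Fgfr2 from -0.46 to 0.020 and Fgfr3 from -0.11 to 0.86. Ihh turned to -0.070 with the block in DESeq2, -0.05 without siNC replicate 2, -1.75 without siPkm2 replicate 1 and -0.089 on log2(TPM + 0.1). Pth1r turned to 0.32 without siNC replicate 1, 0.11 without siPkm2 replicate 2 and 0.069 in the block without replicate 3. Fgfr2 turned to 0.020 without siNC replicate 3, and Fgfr3 to -0.11 without siNC replicate 2 and -0.10 without siPkm2 replicate 1. Ptch1 (0.34 to 0.83 over 19 alternatives), Hhip (-2.21 to -0.50), Gli1 (-2.82 to -0.76), Fgfr1 (-0.57 to -0.12) and Fgf2 (0.24 to 0.86) kept their sign. With 1 library left out, the share differences ranged from -17.2 to 2.35 points for Fgfr1, -3.79 to -0.783 for Fgfr2, 1.10 to 20.97 for Fgfr3 and -0.140 to 0.0603 for Fgfr4. Fgfr1 turned sign, to 2.35, without siNC replicate 2, and Fgfr4, to 0.0512 and 0.0603, without siNC replicate 1 and siPkm2 replicate 2. Each omission of 1 library also broke its pair. The cause was not tested. Ihh and Gli1 had no value with at least 10 counts in every library, and depth limits them, Hhip and Pthlh.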
